A study of Mus musculus with 6 samples.

Results

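The respiratory chain genes described here are 96 features of a single-cell RNA-seq table of mouse lung tumor cells, chosen by name from the 31055 features counted. They are the genes whose symbols begin with Nduf and a subunit letter, the 4 Sdh genes, the Uqcr genes, Cox4 to Cox8 without Cox6a2, the Atp5 genes, and all features beginning with mt-, which mark genes carried on mitochondrial DNA. Of these, 83 are encoded in the nucleus and 13 in the mitochondrial genome. The nuclear members comprise 37 of complex I, 4 of complex II, 8 of complex III, 17 of complex IV and 17 of complex V, and the mt- members comprise 7, 0, 1, 3 and 2 of the same complexes. The 96 rows carry 95 symbols, since Atp5o is listed under 2 gene identifiers, of which ENSMUSG00000116933 held 0 UMIs in every group.

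The cells came from 6 mice in which intratracheal Lenti-Cre had started lung tumors that then grew for 20 weeks. All 6 mice carried Lkb1XTR/XTR and Rosa26LSL-tdTomato, so Cre inactivated Lkb1 and labelled the cells. Of these, 4 mice also carried FLPo-ERT2, a tamoxifen-activated recombinase that can restore the XTR allele; 3 of those received tamoxifen (Restored) and 1 received vehicle (NonRestored). The remaining 2 mice had no FLPo-ERT2, and 1 of them received tamoxifen and 1 vehicle (both NonRestored). Treatment in 4 mg doses or with vehicle lasted 2 weeks, the mice were young adults at tumor initiation per the study's methods, and the dissociated cells were sorted as negative for CD45, CD31, F4/80 and Ter119 and, per the study's text, positive for tdTomato. The deposited matrix pools all 6 mice with no map from cells to mice used here, so Restored was not compared with NonRestored, each group of cells below is 1 sample, and no difference was tested. Intervals are exact 95% intervals that cover only the counting error of unique molecular identifiers (UMIs, 1 per captured transcript), not the spread between mice.

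The respiratory chain passes electrons from NADH through complex I and from succinate through complex II to ubiquinone, then through complex III and cytochrome c to complex IV, where oxygen is reduced. Complexes I, III and IV pump protons, and complex V, the ATP synthase, uses the returning protons to make ATP. Complex II is built wholly from nuclear genes, whereas the other complexes join nuclear subunits, made in the cytosol and imported, to a few subunits that are transcribed and translated inside the mitochondrion. In the alveolus, type II (ATII) cells make surfactant and are rich in mitochondria, and type I (ATI) cells are the thin cells of gas exchange.

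Cells were kept if they had at least 500 genes and at most 20% mt- UMIs, which left 12183 of 16017. Levels are UMIs per 10000 UMIs of all features, summed over the cells of a group. The ATII gate required at least 500 Sftpc and under 2 Hopx UMIs per 10000 and held 6975 cells; the ATI gate required at least 15 Hopx and held 956; and the keratin-high gate required at least 50 Krt8 and Krt18 together and held 964. Cells passing 2 gates were set apart, as were 1129 cells with ATII levels of Sftpc and Hopx between the ATII and ATI limits. These 1129 cells are also part of the 3069 cells in no gate, so those 2 groups overlap. Of markers not used for the gates, 10 of 10 ATII markers were highest in the ATII gate, 10 of 10 ATI markers in the ATI gate, and 6 of 7 transitional markers (Krt19, Krt7, Cldn4 and others) in the keratin-high gate. Median depth was 21660 UMIs per cell in the ATII gate, 11796.5 in the ATI gate and 24582.5 in the keratin-high gate.

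The mt- members were lower in ATI and keratin-high cells than in ATII cells, while the summed nuclear members differed by under 5%. Summed over the 13 genes, the mt- level was 458 UMIs per 10000 in the ATII gate, 275 in the ATI gate and 223 in the keratin-high gate. The ATI level was 1.67-fold lower (1.66 to 1.67) than the ATII level, and the keratin-high level was 2.05-fold lower (2.05 to 2.06). Summed over the 83 nuclear members, the level was 199.8 in ATII, 209 in ATI and 207 in keratin-high cells, or 1.05-fold (1.04 to 1.05) and 1.03-fold (1.03 to 1.04) that of ATII cells. That small nuclear difference turned the other way, to log2 ratios of -0.10 and -0.16, when the 4 gate genes were left out of the total, since Sftpc alone took 15.5% of UMIs in the ATII gate against 4.75% in ATI and 1.17% in keratin-high cells. The mt- difference kept its direction in all 13 alternatives.

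**Figure D1:**
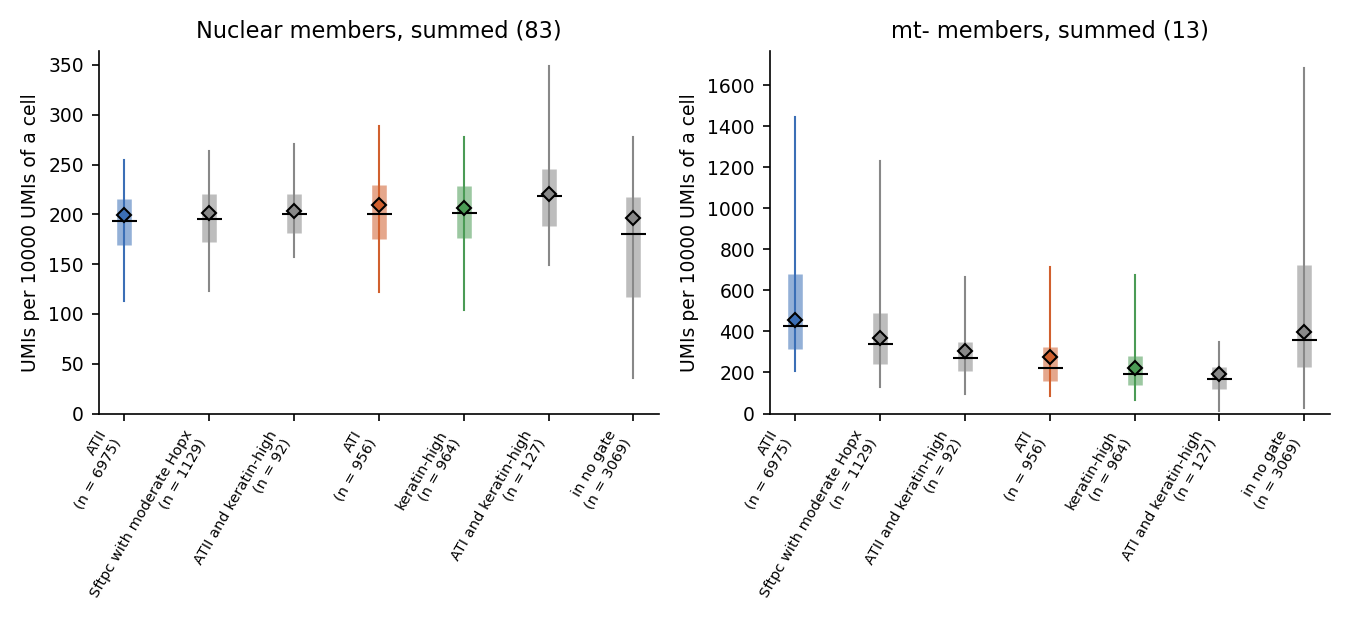
Summed levels of the 83 nuclear (left) and 13 mt- (right) members, in UMIs per 10000, for 7 groups of cells; black dashes are the median cell, boxes the middle quartiles, lines the 5th to 95th percentile of cells and diamonds the level over all UMIs of the group. The mt- median cell was at 428 in ATII, 221 in ATI and 195 in keratin-high cells, while the nuclear median cell was at 193, 200.4 and 201. The summed nuclear level, 199.8, 209 and 207, turned to 237, 221 and 211 when the gate genes left the total. The group in no gate includes the cells with Sftpc and moderate Hopx.

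The same order held for typical cells and for the groups between the gates. The median ATI cell had 221 mt- UMIs per 10000, below the lower quartile of ATII cells, 313, and the upper quartile of keratin-high cells, 281, was below it as well. Cells with Sftpc and moderate Hopx lay between, at a summed mt- level of 368. The 92 cells in both the ATII and keratin-high gates had a summed level of 306, and the 127 cells in both the ATI and keratin-high gates had the lowest of the 7 groups, 192. Their nuclear level was 220.2, the highest of the 7. Cells in no gate, which include those with Sftpc and moderate Hopx, had summed levels of 399 for mt- and 197 for nuclear members.

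The ratio of mt- to nuclear UMIs does not use the total of all features, but it varied with depth. ATII cells held 2.29 mt- UMIs for each nuclear member UMI, ATI cells 1.31 and keratin-high cells 1.08, and the cells in both the ATI and keratin-high gates 0.874. For complex I the ratio was 1.40 in ATII cells, 0.776 in ATI cells and 0.665 in keratin-high cells. For complex III, in which mt-Cytb is the only mitochondrial subunit, it was 2.21, 1.46 and 1.05. Complex IV had ratios of 4.60, 2.64 and 2.19, and complex V 1.45, 0.855 and 0.701. Each of the 4 mixed complexes thus had the order ATII, ATI, keratin-high over cells of all depths, with counting intervals that did not overlap. Under 5000 UMIs per cell, ATI cells had 458 mt- and 181 nuclear UMIs per 10000, and keratin-high cells 549 and 166. From 5000 to 10000 UMIs they had 267 and 190, and 513 and 149. In these 2 ranges the ratio over all members was therefore higher in keratin-high than in ATI cells.

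**Figure D2:**
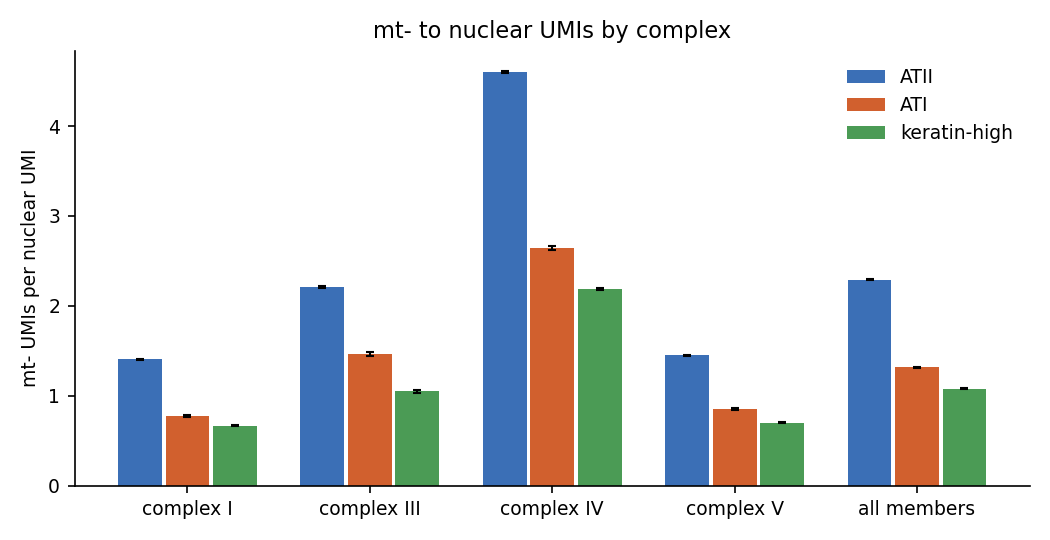
mt- UMIs per nuclear member UMI for complexes I, III, IV and V and for all members, in the ATII, ATI and keratin-high gates; bars are ratios over all UMIs of the gate and error bars exact 95% intervals. In each complex the ATII bar is the highest and the keratin-high bar the lowest, with 2.29, 1.31 and 1.08 over all members.

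All 13 mt- members were lower in ATI than in ATII cells, 11 of them by at least 1.5-fold. Over the 8309 features with at least 0.1 UMI per 10000 in either gate, 9.04% were lower in ATI cells by that much and 31.1% were higher. In keratin-high cells all 13 were again lower, 12 by at least 1.5-fold, where 8.88% of 8398 features were lower and 36.6% were higher. The mt- genes are copied together as long transcripts and then separated, so the 13 are not independent of each other. Neighbours that overlap on the same strand (mt-Atp8 with mt-Atp6, mt-Atp6 with mt-Co3, mt-Nd4l with mt-Nd4) share reads that cannot be assigned, and nuclear copies of mitochondrial DNA can add to or take from any of them.

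Among the mt- subunits of complex I, which form the proton-pumping membrane arm, mt-Nd1 was at 23.3 UMIs per 10000 in ATII, 14.6 in ATI and 13.8 in keratin-high cells. mt-Nd2 was at 22.5, 13.5 and 10.6 in the same order. mt-Nd4 was at 35.4, 20.9 and 16.2. These differences, of log2 -0.67, -0.74 and -0.76 in ATI cells and -0.76, -1.08 and -1.13 in keratin-high cells, left mt-Nd1 the least lowered of the 3 in both. mt-Nd4l was at 3.98, 2.38 and 1.67 UMIs per 10000. mt-Nd5 was at 5.89, 3.40 and 2.66. mt-Nd3 was at 3.20, 1.69 and 1.30, and its ratios to ATII, log2 -0.92 in ATI and -1.30 in keratin-high cells, were the lowest of the 13 in both.

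mt-Nd6 stood apart in its position as well as its values. It lies at chrM:13552-14070 on the minus strand, opposite to the other 12, and is the only protein gene copied from that strand. Its level was 0.235 in ATII (0.228 to 0.243), 0.190 in ATI (0.168 to 0.215) and 0.165 in keratin-high cells (0.149 to 0.181). The log2 ratios of -0.30 and -0.51 were the least negative of the 13, and in neither comparison did mt-Nd6 pass 1.5-fold. It rested on 254 UMIs in ATI cells, and it overlaps no other member on its own strand.

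mt-Cytb, the heme-carrying subunit of complex III, was at 46.3 UMIs per 10000 in ATII, 31.6 in ATI and 23.5 in keratin-high cells. It was 1.46-fold lower (1.45 to 1.48) in ATI cells, which missed the fold, and 1.97-fold lower (1.95 to 1.98) in keratin-high cells. Its share of all mt- UMIs was 10.1% in ATII, 11.5% in ATI and 10.5% in keratin-high cells. The catalytic subunits of complex IV were more alike, with mt-Co1 at 77.3, 45.2 and 38.0, mt-Co2 at 62.3, 37.2 and 32.3, and mt-Co3 at 94.2, 53.4 and 41.2. mt-Co3 was lower in ATI by 1.76-fold (1.75 to 1.78) and in keratin-high cells by 2.29-fold (2.27 to 2.30), and its share of mt- UMIs was 20.6%, 19.4% and 18.4%. The complex V subunits mt-Atp6, of the proton channel, and mt-Atp8 were at 82.4, 50.3 and 41.5 and at 0.747, 0.427 and 0.331. So the mixture of mt- transcripts shifted by at most a few percentage points while their sum differed by up to 2.05-fold.

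ATI and keratin-high cells also differed from each other. All 13 mt- members were higher in ATI than in keratin-high cells, with a summed ratio of 1.23 (1.23 to 1.24) and log2 ratios of 0.09 for mt-Nd1 to 0.51 for mt-Nd4l. The order of the summed level turned with depth: below 5000 UMIs per cell ATI cells were at 458 and keratin-high cells at 549, from 5000 to 10000 UMIs at 267 and 513, and in both ranges above that ATI cells were the higher. The median depth was 11797 UMIs in ATI and 24583 in keratin-high cells. None of the 13 reached 1.5-fold, where 10.6% of 8486 features were higher in ATI and 13.1% were lower by that much. No test could be made of this or any other difference between gates.

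Depth, RNA quality and the limit on mt- UMIs moved with these values, and their part in the differences was not tested. In ATII cells the mt- level was 1110 at under 5000 UMIs per cell, 618 at 10000 to 20000, 396 at 20000 to 40000 and 347 above that. ATI and keratin-high cells had lower levels than ATII cells in each range of depth with a value, by amounts that varied with depth. Below 5000 UMIs they were 2.42-fold and 2.02-fold lower, and from 5000 to 10000 UMIs 4.04-fold and 2.10-fold lower. From 10000 to 20000 UMIs they had levels of 261 and 244, 2.36-fold and 2.53-fold lower. From 20000 to 40000 UMIs they had levels of 279 and 223, 1.42-fold and 1.78-fold lower, and above that keratin-high cells were 1.75-fold lower. Malat1, a nuclear RNA, was at 297 UMIs per 10000 in ATII, 768 in ATI and 413 in keratin-high cells, and among cells with 200 to 600 Malat1 UMIs per 10000 the log2 ratios of the summed mt- level were -0.71 and -1.17. The 20% limit had removed 417 of 7392 ATII cells (5.64%), 8 of 964 ATI cells (0.830%) and 14 of 978 keratin-high cells (1.43%). Without that limit the log2 ratios were -0.81 and -1.10.

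**Figure D3:**
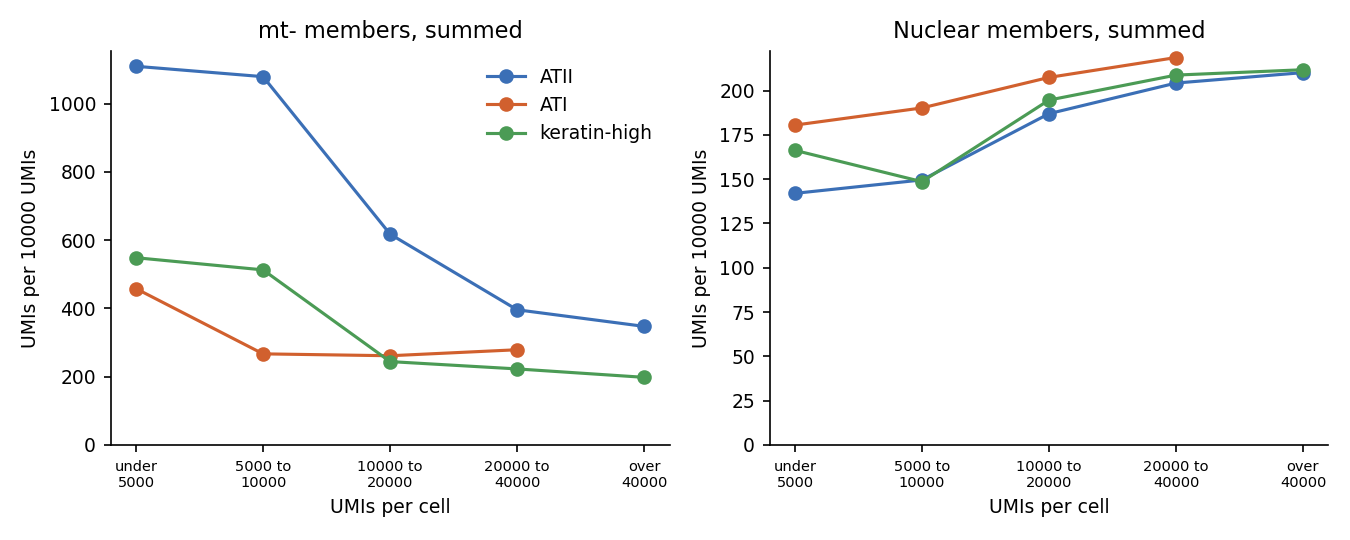
Summed level of the mt- (left) and nuclear (right) members in UMIs per 10000 against the UMIs per cell, in 5 ranges, for the 3 gates; the ATI range over 40000, with 15 cells, is left out. In the mt- panel ATII lies above both other gates in every range, from 1110 at the shallowest to 347 at the deepest, and in the nuclear panel the ATII and ATI lines climb with depth while the keratin-high line dips at 5000 to 10000 UMIs.

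The nuclear level depended on depth in the opposite direction and on the mt- share of the cell. In ATII cells it was 142 at under 5000 UMIs and 210.1 at over 40000. ATI cells exceeded ATII cells in each of the 4 ranges with a value, by 1.27-fold at under 5000 and 1.07-fold at 20000 to 40000 UMIs. Cells in which mt- genes took 8 to 20% of UMIs had a nuclear level of 159 in ATII, 156 in ATI and 129 in keratin-high cells, against 205, 213 and 217 in cells with 2 to 4%. Per 10000 UMIs without the mt- UMIs, these levels were 179, 176 and 145 against 212, 219 and 223. In each gate the nuclear level was thus lowest in the cells with the highest mt- share. Their median depth was 9817, 5898 and 6786 UMIs, against 28022.5, 14821 and 27946 in the cells with 2 to 4%. Depth and mt- share were not separated. Markers of other cell types moved with the gates. Summed endothelial markers were at 0.169, 0.0914 and 0.0669 UMIs per 10000 in ATII, ATI and keratin-high cells and fibroblast markers at 0.309, 0.0982 and 0.106. Immune markers were at 58.3, 43.2 and 18.1, nearly all of it Cd74, which ATII cells also express, with Ptprc at 0.00155 or less in each gate. Ciliated markers were at 0.301, 1.51 and 2.76, mostly Tppp3, with Foxj1 at 0.0120 or less, and club markers at 1.20, 0.439 and 0.111. The part of Cd74, ciliated and club markers in the results was not tested. Without the cells in which endothelial, fibroblast and immune markers other than Cd74 together reached 10 UMIs per 10000, the summed levels were 199.8, 209 and 207 for nuclear and 458, 274 and 223 for mt- members.

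Of the 83 nuclear members, 76 reached 0.1 UMI per 10000 in at least 1 gate of each comparison with ATII, 1 of them, Cox4i2, in the ATII gate alone. For ATI cells, 54 of the 76 were higher and 22 lower than in ATII cells, or 71.1% higher beside 76.6% of all features tested. Only 2 were higher and 1 lower by at least 1.5-fold, where 31.1% of all features tested were higher and 9.04% lower. For keratin-high cells 45 were higher and 31 lower, or 59.2% higher beside 76.6% of all features, and 5 were higher and 1 lower by at least 1.5-fold, beside 36.6% and 8.88% of all features. The median log2 ratio of the nuclear members was 0.09 in ATI and 0.06 in keratin-high cells, whereas the median of all features tested was 0.38 and 0.40. Against that median gene the nuclear members were 0.28 and 0.34 lower, with 71 and 64 of 76 below it. Between ATI and keratin-high cells 38 nuclear members were higher in ATI and 37 lower, or 50.7% higher beside 47.2% of all features. Of these 1, Cox6b2, passed 1.5-fold, beside 10.6% of all features higher and 13.1% lower by that much.

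**Figure D4:**
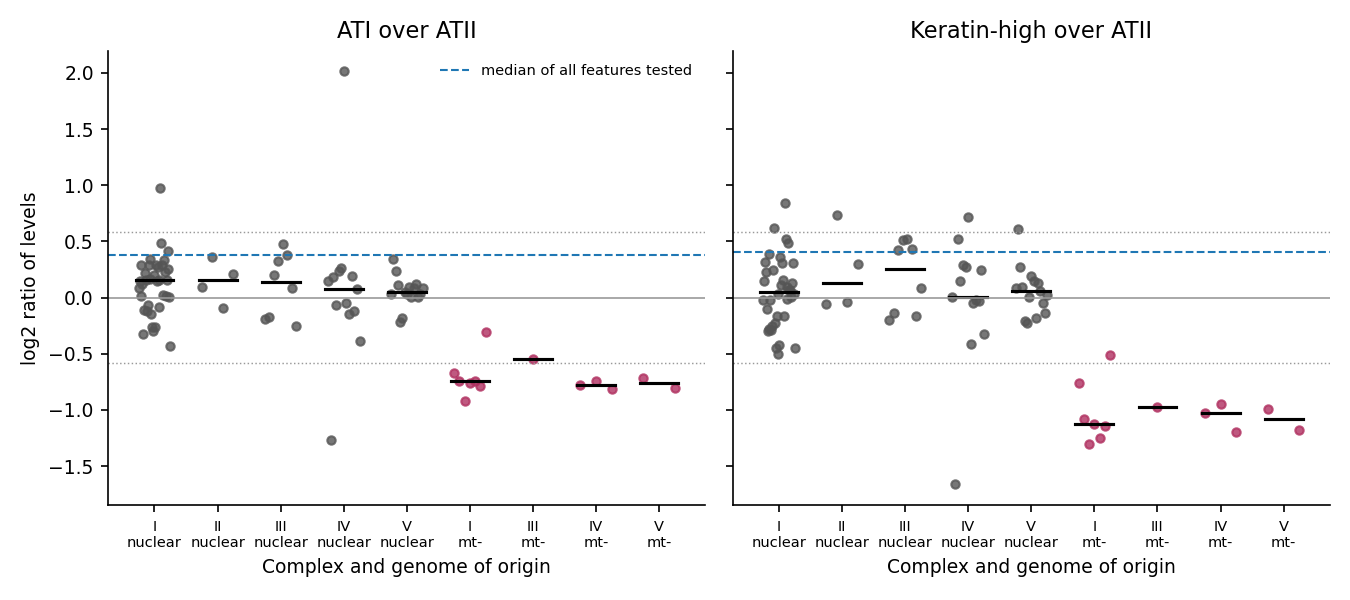
log2 ratio of the level in ATI (left) and keratin-high (right) cells to ATII cells for each member past the minimum level, by complex and genome of origin; bars are medians, dotted lines 1.5-fold and the dashed line the median of all features tested, 0.38 and 0.40. The mt- points lie below 0 in every complex, while the nuclear points lie around 0 and mostly under the dashed line, so against the median gene most of the higher nuclear members turn to lower.

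By complex, the nuclear sums of ATI cells against ATII cells were 1.08-fold for complex I (67.3 against 73.0 UMIs per 10000 in ATII and ATI), 1.12-fold for complex II, 1.03-fold for complex III, 1.01-fold for complex IV and 1.03-fold for complex V. In keratin-high cells they were 1.04-fold, 1.22-fold, 1.07-fold, 1.00-fold and 1.04-fold. By these sums complex II had the highest ratio of the 5 in both. By the median log2 ratio of its members it did not. It was at 0.152 beside 0.153 for complex I in ATI cells, and at 0.13 beside 0.25 for complex III in keratin-high cells. Against the median gene the median log2 ratio of every complex was negative in both comparisons, from -0.15 for complex III in keratin-high cells to -0.39 for complex IV in the same cells.

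Complex II is the succinate dehydrogenase of the TCA cycle, and its members did not move as 1. Sdha, the flavoprotein that oxidizes succinate, was at 0.800 in ATII, 0.854 in ATI and 0.770 UMIs per 10000 in keratin-high cells. Sdhb (chr4:140961203-140979193), the iron-sulfur subunit, was at 0.901, 1.16 and 1.49, a ratio of 1.29 (1.22 to 1.36) in ATI and 1.66 (1.60 to 1.72) in keratin-high cells. The membrane anchors Sdhc and Sdhd were at 0.788, 0.740 and 0.766 and at 0.783, 0.905 and 0.965. Only Sdhb passed 1.5-fold, and only in keratin-high cells, where it was also 0.33 above the median gene on the log2 scale.

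In complex I, the 7 nuclear core subunits, which carry electrons from NADH to ubiquinone, were all at or above their ATII level in ATI cells, with log2 ratios of 0.0034 to 0.48. Of the other 29, accessory subunits apart from Ndufa4, 19 were higher and 10 lower. In keratin-high cells 6 of 7 core subunits and 15 of 29 others were higher. Of all features tested, 76.6% were higher in each comparison. This split by role was made after the values were seen. Ndufs1 (chr1:63143596-63176833), the largest iron-sulfur core subunit, was at 0.317 UMIs per 10000 in ATII (0.308 to 0.326), 0.443 in ATI (0.408 to 0.480) and 0.456 in keratin-high cells (0.430 to 0.483). Ndufv1 (chr19:4007384-4012806), which binds NADH, was at 0.781, 1.04 and 0.966. Both lay under 1.5-fold and, on the log2 scale against the median gene, Ndufs1 was at 0.11 and 0.12 and Ndufv1 at 0.04 and -0.10.

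Ndufc2 (chr7:97400003-97407802), an accessory subunit of the membrane arm, had the largest ratios among members with at least 1 UMI per 10000. Its level was 3.06 in ATII (3.03 to 3.08), 6.02 in ATI (5.89 to 6.15) and 5.48 in keratin-high cells (5.39 to 5.57), or 1.97-fold (1.92 to 2.02) and 1.79-fold (1.76 to 1.83) that of ATII. It was at 3.99 in cells with Sftpc and moderate Hopx and at 8.90 in cells of both the ATI and keratin-high gates. The intervals of these groups did not overlap. Its partner in name, Ndufc1, was at 1.61, 1.51 and 1.44.

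Other accessory subunits of complex I were lower. Ndufv3, next to the NADH site, was at 1.24 UMIs per 10000 in ATII, 0.920 in ATI and 0.910 in keratin-high cells, 1.35-fold and 1.37-fold lower. Ndufb3, of the membrane arm, was at 1.83, 1.48 and 1.29, 1.23-fold and 1.42-fold lower. Ndufb5 and Ndufb11, of the same arm, were at 2.74, 2.29 and 2.04 and at 3.84, 3.47 and 2.82. Ndufa2, near the NADH site as well, was at 3.16, 2.52 and 2.56. Ndufa9 (chr6:126821721-126849136), at the joint of the arms, went the other way in keratin-high cells, at 0.563 in ATII, 0.716 in ATI and 0.866 in keratin-high cells, with a ratio of 1.54 (1.47 to 1.61).

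In complex III 3 large subunits, grouped after their values were seen, had higher levels in both gates than in ATII cells. Uqcrc2 (chr7:120635176-120659524), a core protein, was at 1.05 in ATII, 1.46 in ATI and 1.5 UMIs per 10000 in keratin-high cells. Uqcrc1, its partner, was at 1.04, 1.30 and 1.48, and Uqcrfs1, the Rieske iron-sulfur protein, at 1.31, 1.69 and 1.76. Their log2 ratios were 0.32 to 0.47 in ATI and 0.43 to 0.52 in keratin-high cells, against a median of -0.17 and -0.14 for the other 5. The median of all features was 0.38 and 0.40, so relative to the median gene Uqcrc1 and Uqcrfs1 were not higher in ATI cells. None of the 8 reached 1.5-fold.

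Complex IV held the lowest ratio in both comparisons and the highest in ATI cells, in isoforms with restricted expression. Cox4i2 (chr2:152754173-152765037), the lung and oxygen-responsive form of subunit IV, was at 0.175 UMIs per 10000 in ATII (0.169 to 0.182), 0.0727 in ATI (0.0589 to 0.0887) and 0.0553 in keratin-high cells (0.0466 to 0.0651). It was 2.41-fold lower (1.97 to 2.98) in ATI and 3.17-fold lower (2.68 to 3.77) in keratin-high cells. These levels rest on 2827, 97 and 143 UMIs. It passed the minimum only through the ATII gate, where it is high, so it had to be lower in the others and its place among the members tested is a description. Cox4i1, the form in most tissues, was at 9.17, 10.1 and 9.23.

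Cox6b2 (chr7:4751792-4753094), known as a testis form of subunit VIb, was at 0.103 in ATII (0.0983 to 0.108), 0.417 in ATI (0.383 to 0.453) and 0.170 UMIs per 10000 in keratin-high cells (0.154 to 0.186). The ATI level was 4.04-fold (3.66 to 4.45) that of ATII cells, the highest ratio of the members past the minimum level. Its 556 UMIs in the ATI gate came from 223 of 956 cells, the richest of which held 18. Cox6b1, the common form, was at 3.42, 4.09 and 4.12. The cells in both the ATI and keratin-high gates had a Cox6b2 level of 0.304 UMIs per 10000 and those in no gate 0.161, both above the ATII interval. Cells with Sftpc and moderate Hopx, a part of those in no gate, were at 0.0983. Cells in both the ATII and keratin-high gates were at 0.0413, and neither group was above the ATII level.

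The remaining isoform sets of complex IV held no member that was past the minimum and past 1.5-fold. Cox7a2 was at 4.06, 3.67 and 3.94, Cox7a2l, a relative that joins supercomplexes, at 3.91, 4.48 and 3.85, and the muscle form Cox7a1 at 0.0348, 0.0360 and 0.0170. Cox7b was at 2.73, 2.51 and 2.67, while Cox7b2 had 0 UMIs in all 3 gates, which by a floor of 3 counts a gate allows up to 0.000186 UMIs per 10000 in ATII, 0.00225 in ATI and 0.00116 in keratin-high cells. Cox8a, a small structural subunit, was at 8.57, 6.56 and 6.86, ratios of 0.765 (0.748 to 0.781) and 0.800 (0.788 to 0.813) to ATII. Cox8b had 0 UMIs in the 3 gates, and Cox8c had 1, 0 and 2. Ndufa4, named for complex I but since placed in complex IV, was at 5.96, 6.92 and 7.77, and its hypoxia-induced relative Ndufa4l2 had 11 UMIs in ATII, 0 in ATI and 2 in keratin-high cells.

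Of the ATP synthase, Atp5b (chr10:128083273-128090391), the catalytic beta subunit, was at 4.49 in ATII (4.46 to 4.52), 5.70 in ATI (5.58 to 5.83) and 6.84 UMIs per 10000 in keratin-high cells (6.74 to 6.94). It was the only 1 of 15 tested complex V members past 1.5-fold, at 1.52 (1.5 to 1.55) in keratin-high cells. The genes of the proton-turned c-ring, which encode the same mature protein, were within 1.14-fold: Atp5g1 was at 2.52, 2.61 and 2.52, Atp5g2 at 4.26, 4.34 and 4.85, and Atp5g3 at 2.43, 2.59 and 2.70. The coupling factor Atp5s was at 0.0536, 0.0674 and 0.0530, below the minimum. With the minimum raised to 1 UMI per 10000, 3 nuclear members were past 1.5-fold and higher in keratin-high cells and 0 were lower, and 1 and 0 in ATI cells. At that minimum 44.0% of all features were higher and 11.0% lower in keratin-high cells, and 35.1% and 10.7% in ATI cells. Relative to the median gene, 0 of the 76 were higher and 15 lower in keratin-high cells, beside 16.1% and 16.8% of all features on that scale, so the direction of those counts depends on the scale.

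The nuclear members with long coding regions were higher than those with short ones. Over the 76 tested, the rank correlation of coding length with the log2 ratio was 0.42 for ATI and 0.33 for keratin-high cells, against 0.08 and -0.03 over all features with a coding length; genes are not replicates and these are descriptions. The 38 members with a coding length under 426 bases had a median log2 ratio of 0.04 in ATI and -0.02 in keratin-high cells, and the 38 others 0.16 and 0.14. Over all features the medians were 0.17 and 0.21 under that length and 0.39 and 0.42 above it. A gap between short and long genes was thus seen in all features too.

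**Figure D5:**
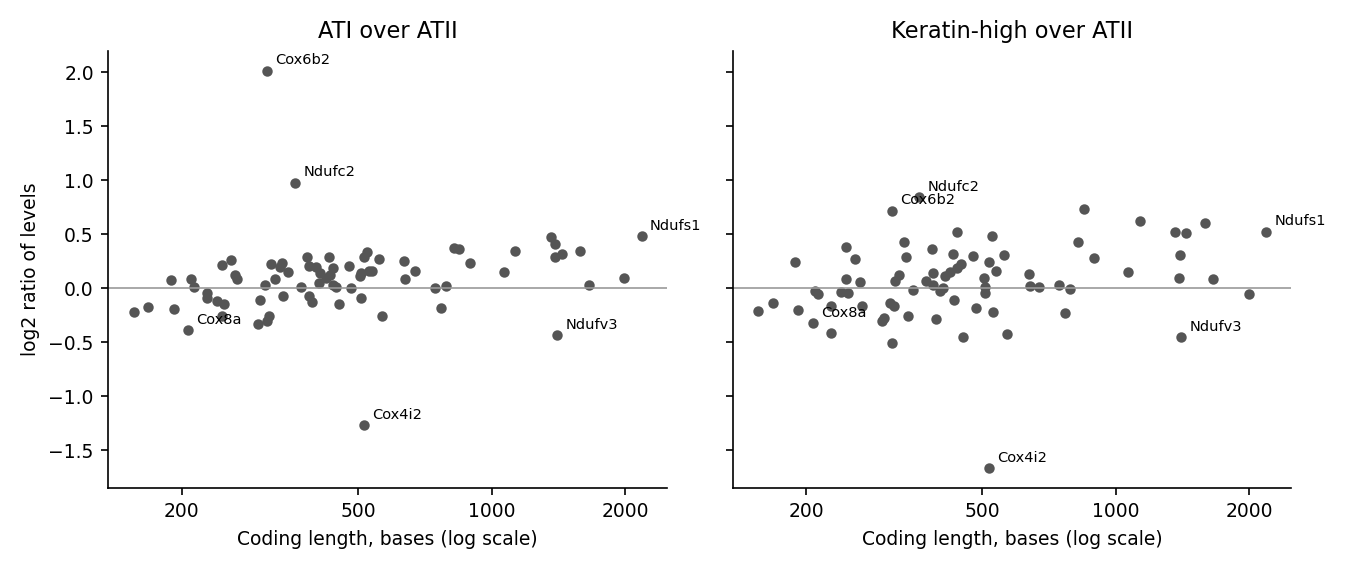
log2 ratio of the level to ATII cells against coding length in bases (log axis) for the 76 nuclear members past the minimum level, in ATI (left) and keratin-high (right) cells. Short members lie lower, with rank correlations of 0.42 and 0.33, and Cox6b2, Ndufc2 and Cox4i2 lie far from the rest.

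Promoters were read for motifs of factors known to drive nuclear respiratory genes, because most nuclear members kept close to each other. RefSeq sequences of GRCm38.p6, from 250 bases before to 50 after the start, matched 66 member genes; Cox4i1, Cox4i2, Ndufs1 and Uqcrc2 were among those not matched. On either strand, GCATGCGC, part of the NRF1 site, was in 15.2% of the 66 and 3.05% of 27025 genes. AAGATGGC, part of the YY1 site, was in 13.6% and 3.19%, CCGGAAGT, an ETS site, in 7.58% and 4.31%, and TCAAGGTCA, an ERR site, in 3.03% and 0.466%. At least 1 of the 4 was in 25 of 66, or 37.9%, against 10.4%. Members with a motif had a median log2 ratio of 0.09 in ATI and 0.07 in keratin-high cells, and those without 0.12 and 0.03. The following 30-base windows show 1 match of each motif in members described above, in the direction of the gene, with the motif or its reverse complement in capitals. For Sdhb the window is chr4:140961206-140961235 (plus strand), for Ndufa9 chr6:126849097-126849126 (minus strand), for Cox8a chr19:7217604-7217633 (minus strand) and for Atp5g3 chr2:73911359-73911388 (minus strand).
Sdhb, NRF1: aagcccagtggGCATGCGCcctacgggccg
Ndufa9, YY1: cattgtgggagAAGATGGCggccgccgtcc
Cox8a, ETS: atttccgaaatACTTCCGGctcgggcgtcc
Atp5g3, ERR: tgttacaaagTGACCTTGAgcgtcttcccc
Neither Ndufc2 nor Cox6b2, the members with the highest ratios in ATI cells, held any of the 4 in their windows. A match is a string of letters and says nothing of binding in these cells.

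Genes that build or serve the chain were read beside the members. Of the regulators of mitochondrial biogenesis, Ppargc1a, a coactivator of respiratory genes, was at 0.146 UMIs per 10000 in ATII (0.140 to 0.152), 0.0435 in ATI (0.0330 to 0.0562) and 0.0429 in keratin-high cells (0.0353 to 0.0517), with ratios of 0.297 and 0.293. Ppargc1a passed the minimum only through the ATII gate, where it is high, so it had to be lower in the others and its ratios are a description. Nrf1, Gabpa and Yy1 were higher than in ATII cells, at ratios of 1.32, 1.59 and 1.87 in ATI and 1.58, 1.42 and 1.40 in keratin-high cells. Esrra was at 0.251, 0.238 and 0.216. Of this list 2 of 8 tested were higher and 1 lower by at least 1.5-fold in ATI cells, and 2 of 9 and 1 in keratin-high cells. The 1 lower was Ppargc1a in both, so the count of lower members follows from the minimum level. The shares higher, 25% and 22.2%, were below the 31.1% and 36.6% of all features.

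Of the genes that copy and keep mitochondrial DNA and RNA, 12 of 13 tested were higher in ATI than in ATII cells and 10 of 12 were higher in keratin-high cells, where 76.6% of all features were higher in each. Tfam, which packs and transcribes mitochondrial DNA, was at 0.220 in ATII, 0.307 in ATI and 0.310 UMIs per 10000 in keratin-high cells. Lrpprc, which stabilizes mt- messengers, was at 0.164, 0.177 and 0.169, and Slirp, its partner, at 0.429, 0.455 and 0.494. Polg2, an accessory subunit of the mitochondrial DNA polymerase, was at 0.126, 0.0892 and 0.0719. Polg2 passed the minimum only through the ATII gate, where it is high, so it had to be lower in the others. It is the 1 member of this list counted below as lower in keratin-high cells. The list's median log2 ratio was 0.39 over 13 tested in ATI and 0.46 over 12 in keratin-high cells, close to the 0.38 and 0.40 of all features. By at least 1.5-fold, 2 (15.4%) were higher and 0 lower in ATI cells, and 3 (25%) and 1 in keratin-high cells, beside 31.1% and 36.6% of all features higher.

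Mitochondrial ribosomal proteins, which translate the mt- messengers, had median log2 ratios of 0.27 and 0.42, above those of the nuclear members, with 6 of 75 (8.0%) higher and 1 lower by 1.5-fold in ATI and 15 (20.0%) and 0 in keratin-high cells; against the median gene the ATI value turned to -0.11. Assembly factors of the complexes had 4 of 35 (11.4%) higher and 1 lower in ATI and 5 (14.3%) and 0 in keratin-high cells. Any gene of these lists under the minimum in 1 gate was tested only through the gate where it is high. The direction of such a gene was set by the minimum. All 4 shares higher of the mitochondrial ribosomal proteins and assembly factors were below the 31.1% and 36.6% of all features. Of the carriers, Slc25a4, the ADP/ATP exchanger, was at 1.85, 3.62 and 3.93 and Vdac1, an outer membrane channel, at 1.06, 1.69 and 2.31. Of 9 carriers and channels, 2 were higher and 1 lower by at least 1.5-fold in ATI cells, and 4 and 0 in keratin-high cells, shares higher of 22.2% and 44.4% beside the 31.1% and 36.6% of all features. The creatine kinase Ckmt1 was at 1.01, 0.382 and 1.09, lower in ATI cells alone. Cycs, the cytochrome c that links complexes III and IV, was at 1.34, 1.42 and 2.58. In the TCA cycle Idh2 was at 1.67, 1.07 and 0.898, the only gene of 14 lower by 1.5-fold, and 1 was higher in each comparison: Dlst in ATI and Idh3a in keratin-high cells, named after their values were seen. These single genes are 7.14% of the list in each direction, below the 31.1% and 36.6% of all features higher and the 9.04% and 8.88% lower.

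As a yardstick, other large families of housekeeping genes were read in the same way. Cytosolic ribosomal protein genes had median log2 ratios of -0.07 in ATI and 0.13 in keratin-high cells, below the median gene as the nuclear members were. Proteasome genes had 0.59 and 0.88, with 23 and 33 of 46 (50% and 71.7%) higher by at least 1.5-fold, beside 31.1% and 36.6% of all features. The subunits of the vacuolar proton pump had 0.22 and -0.0059, with 0 and 2 of 16 higher and 5 lower in both, or 31.25% lower beside 9.04% and 8.88% of all features.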

How the data were processed

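The deposited matrix holds counts: whole UMIs per gene and cell, which the authors made from 10x 3' libraries with Cell Ranger 3.0.2 on mm10 (named in the submitters' processing notes and methods); a second column pairs gene identifiers with symbols. Normalized and integrated data were not used here. Levels, exact Poisson intervals and exact conditional binomial intervals of ratios were computed with Python 3.11.15, numpy 2.4.6, scipy 1.17.1 and pandas 2.3.3, and the comparison was tested on simulated data. No doublet caller was run; an alternative drops the 5% of cells with the most UMIs in each gate. Named genes are all mt- members, the Sdh genes, the isoform sets, and the 5 highest and 5 lowest nuclear ratios of each comparison with ATII; others are named as list members or subunits of a described group. Members, gates and lists were chosen with earlier results of these data known. Coordinates and coding lengths are from GENCODE M21 (GRCm38, the same assembly as mm10), matched by identifier for 96 of 96. Reads that fit several genes, such as copies or overlapping genes, are not counted by this pipeline, and 3' counts are not per length. One further allele that all mice shared is not reported here.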

Additional observations from a re-analysis of the deposited data

Results flagged for a closer look

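Ndufa4l2, a hypoxia-induced relative of Ndufa4, reached 0.0599 UMIs per 10000 in the 3069 cells in no gate, which no comparison used, above the 0.000581 that a count of 0 allows there. In the ATII gate its level was 0.000681. Its 309 UMIs came from 57 cells, in which summed fibroblast markers (Col1a1, Col1a2, Col3a1, Mgp and Dcn) were at 457 UMIs per 10000, against 31.3 in the other 3012 cells in no gate. Summed endothelial markers were at 3.14 and 1.90 in the same cells.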

How the results depend on the processing

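The summed mt- level kept its direction in every alternative run for the 3 comparisons; all but 1 alternative, the removal of cells with markers of other types, moved it beyond its counting interval. The log2 ratio of ATI to ATII was -0.74, that of keratin-high to ATII -1.04 and that of ATI to keratin-high 0.30, and alternatives are given in this order. They were -0.90, -1.25 and 0.35 with the gate genes left out of the total, -0.76, -1.07 and 0.31 with mt- UMIs left out, and -1.11, -1.44 and 0.33 relative to the median feature. They were -0.64, -0.90 and 0.26 at a limit of 10% mt- UMIs and -0.81, -1.10 and 0.29 with no limit. As means over cells they were -0.98, -1.16 and 0.18. Cells in 2 gates kept in both gave -0.79, -1.0 and 0.21, stricter gates -0.83, -1.11 and 0.29, cells of 10000 to 30000 UMIs -0.90, -1.07 and 0.16, and cells without the 5% richest in UMIs -0.81, -1.06 and 0.25. Added after seeing the data, cells with 1 to 8% mt- UMIs gave -0.57, -0.79 and 0.22, and cells with 200 to 600 Malat1 UMIs per 10000 gave -0.71, -1.17 and 0.46.

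The summed nuclear level was near 0 on the log2 scale, at 0.065, 0.049 and 0.016 in the same order. It reversed to -0.10 and -0.16 for ATI and keratin-high against ATII with the gate genes left out (0.063 for ATI against keratin-high) and to -0.31 and -0.35 relative to the median feature (0.045). Stricter gates gave 0.045, a reversed -0.024 and 0.069; the cause was not tested. It was 0.038, 0.014 and 0.023 with mt- UMIs left out, 0.047 and 0.030 against ATII at a limit of 10%, 0.073 and 0.057 with no limit, and 0.093 and 0.073 as means over cells. Keeping cells in both gates gave 0.075 for ATI against ATII. Cells of 10000 to 30000 UMIs gave 0.095, 0.038 and 0.057. Leaving out the 5% richest gave 0.059 for keratin-high against ATII and 0.0013 for ATI against keratin-high. Cells with 1 to 8% mt- UMIs gave 0.040, 0.033 and 0.0075, and the Malat1 range gave 0.15, 0.060 and 0.093.

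Nuclear members past 1.5-fold numbered 2 higher and 1 lower in ATI, and 5 higher and 1 lower in keratin-high cells. With the gate genes left out there were 2 lower in ATI and, in keratin-high cells, 1 higher and 6 lower, where 11.7% of all features were lower in ATI and 23.2% higher and 12.7% lower in keratin-high cells. Relative to the median feature there were 9 lower in ATI and 0 higher and 15 lower in keratin-high cells, beside 16.0% of all features lower in ATI and 16.1% higher and 16.8% lower in keratin-high cells. A minimum of 1 UMI per 10000 gave 1 higher and 0 lower in ATI cells, beside 35.1% and 10.7% of all features. That minimum gave 3 higher and 0 lower in keratin-high cells, beside 44.0% and 11.0% of all features. A minimum of 10 UMIs gave 2 lower in each, beside 18.3% and 17.6% of all features. At a fold of 5 to 4 there were 10 higher and 4 lower in ATI and 14 higher and 6 lower in keratin-high cells, beside 54.9% and 13.2% of all features in ATI and 56.2% and 13.1% in keratin-high cells. Stricter gates gave 4 lower in keratin-high cells, beside 10.3% of all features. Cells with 1 to 8% mt- UMIs gave 3 higher in keratin-high cells, beside 36.4% of all features.

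No paired analysis was possible because the files used here carry no map from cells to mice and the labels give no replicate numbers. Each gate pools 6 mice and both cohorts in unknown shares, so no spread between mice can be given. A gate that drew mostly on 1 mouse cannot be told apart from a cell state. In its own clusters of sorted cells, the paper reports more ATII-like and fewer indeterminate cells in restored tumors. A difference between gates therefore cannot be told apart from an effect of Lkb1 restoration, tamoxifen or FLPo-ERT2. Free RNA can add mt- and surfactant transcripts to any cell, and its part was not tested. The counts of low genes such as Cox4i2 and Cox6b2 limit their precision to the intervals given.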
